A study of Mus musculus with 12 samples.

Results

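Transcripts of 10 genes of Toll-like receptor signalling were examined in mouse (Mus musculus) neutrophils sorted from the heart. The genes were taken by name from the 11911 genes of the deposited table, and all 10 were found: the receptors Tlr2, Tlr4, Tlr6 and Tlr13, the co-receptors Cd14 and Ly96, the adaptor Myd88, the kinases Irak2 and Irak4, and the ubiquitin ligase Traf6. The 12 RNA-seq libraries carry the genotype label LOY (6 libraries, numbered 3, 4, 5, 10, 14 and 15) or Control (6 libraries, numbered 2, 6, 7, 8, 11 and 12), and the series title speaks of hematopoietic loss of Y. Both groups share the treatment label Control and a title that speaks of Control bone marrow transplants, and the age and strain of the mice are not given in the sources used here. Per the labels' protocols, each library came from 800 left ventricular cells, and the gate took cells with CD45.2, Ly6G and RFP (a red fluorescent marker) on and CD64 off. The labels do not state which cells RFP marks. Whether each library is 1 mouse is not stated, so the p-values cover only the library-to-library spread, which may be technical.

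Toll-like receptors are membrane proteins that bind molecules of microbes and of damaged cells, either at the cell surface or inside endosomes. Most of them signal through MyD88, which gathers the kinases IRAK4 and IRAK2 into a complex and passes the signal to TRAF6, a ubiquitin ligase that leads to activation of NF-kB. In neutrophils this route is known for inducing cytokines and prolonging survival after contact with bacteria.

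The level of a gene is given as normalised reads, that is, its read count after division by the library's own factor. The recovered reads of the listed genes came to between 6767108 and 12561174 per library. As a check of the genotype labels, Ddx3y, Eif2s3y and Uty, which lie on the Y chromosome, summed to between 0 and 59.3 normalised reads in LOY libraries and between 1032 and 1972 in Control libraries. All 15 genes of a neutrophil marker list were in the table, led by S100a9, S100a8 and Csf3r, and summed to between 221276 and 438724 normalised reads in LOY libraries and between 245106 and 669023 in Control libraries. Of these 15, 3 had a positive and 12 a negative log2 fold change, LOY over Control, with a median of -0.20. None had an unadjusted p under 0.05 in limma, and of all genes tested 50.4% were positive. Ly6g, the gene of the sorting antigen, was under 10 normalised reads in LOY 3, LOY 4, LOY 10 and Control 12. Markers of other cells were present as well. The 13 listed of 15 macrophage markers, led by Apoe, Csf1r and C1qb, summed to between 4907 and 34032 in LOY libraries and between 9762 and 13793 in Control libraries, with Lyve1 and Folr2 at 0 in 6 or more libraries. The 15 heart muscle markers summed to between 4500 and 68648 in LOY libraries and between 4937 and 8324 in Control libraries, with LOY 10 highest in both lists. All 14 heart muscle markers tested had a positive log2 fold change, 4 of them at an unadjusted p under 0.05 in limma. Of all genes tested, 4.37% had an unadjusted p under 0.05 in limma. The 10 listed of 11 endothelial markers summed to between 2632 and 6349 in LOY libraries and between 1062 and 4079 in Control libraries, with 7 of 8 tested positive and 3 at an unadjusted p under 0.05. Fibroblast markers summed to between 5835 and 16383 in LOY libraries and between 2972 and 10540 in Control libraries, with 6 of 6 tested positive and 1 at an unadjusted p under 0.05. Monocyte markers summed to between 212 and 15477 in LOY libraries and between 322 and 3694 in Control libraries, B cell markers to between 658 and 4338 in LOY libraries and between 1607 and 8375 in Control libraries, and the 5 listed of 7 dendritic cell markers to between 1955 and 20934 in LOY libraries and between 2365 and 18349 in Control libraries. The dendritic cell list was led by H2-Ab1 and H2-Aa, with Flt3 at 0 in 10 libraries and Zbtb46 in 11. The fibroblast list was led by Gsn, with Pdgfra at 0 in 11 libraries and Lum in 10. Also at 0 in 6 or more libraries were Ryr2 (heart muscle), Emcn, Tie1 and Tek (endothelial), Chil3 and Vcan (monocyte) and Ciita (dendritic). Of 7 T and NK cell markers 2 were listed, and they summed to at most 658 in LOY libraries and 440 in Control libraries. Positive log2 fold changes were seen for 2 of 9 macrophage, 1 of 4 monocyte, 1 of 6 B cell and 0 of 3 dendritic markers tested. The rest of these were negative, and none had an unadjusted p under 0.05 in limma. The part of these cells in the values of the 10 genes was not tested. In bulk samples such as these, fewer cells of a type and less RNA per cell cannot be told apart, and macrophages and endothelium are also known to use Toll-like receptors.

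RefSeq promoter windows on GRCm38.p6, which run from 250 bases before to 50 bases after a transcript start, were at hand for 7 of the 10 genes. They were searched on both strands for 3 short motifs: an NF-kB motif of 10 letters that leaves some positions free, the ETS core AGGAAGT that PU.1 and its relatives bind, and TGACTCA of AP-1. Tlr2 and Tlr6 were the genes with a match, and their windows are shown because their proteins form 1 receptor and their transcripts differed in level. Capitals mark the match, and both are written 5′ to 3′ on the minus strand, on which both genes lie.

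Tlr2, chr3:83841559-83841858: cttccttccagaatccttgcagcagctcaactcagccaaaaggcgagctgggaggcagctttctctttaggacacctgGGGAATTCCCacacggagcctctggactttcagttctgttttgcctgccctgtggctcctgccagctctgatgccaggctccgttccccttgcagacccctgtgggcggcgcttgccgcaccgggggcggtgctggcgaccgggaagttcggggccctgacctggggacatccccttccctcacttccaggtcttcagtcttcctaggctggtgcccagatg
Tlr6, chr5:64959999-64960298: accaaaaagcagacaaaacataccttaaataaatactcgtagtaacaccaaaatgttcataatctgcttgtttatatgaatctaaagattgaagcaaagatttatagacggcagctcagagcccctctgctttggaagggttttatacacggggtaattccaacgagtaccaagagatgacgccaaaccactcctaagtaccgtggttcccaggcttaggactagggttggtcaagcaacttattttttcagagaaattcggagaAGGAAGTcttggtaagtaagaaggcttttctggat

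The Tlr2 window held GGGAATTCCC at position -172 from the start, and a match to the NF-kB motif was found in 1.2% of 32851 promoter windows. The Tlr6 window held the ETS core at position 16 after the start, and a second Tlr6 window held its reverse complement at -62. The ETS core occurred in 9.35% of all windows and the AP-1 letters in 5.2%. The windows of Tlr13, Myd88, Irak2, Irak4 and Traf6 held no match to the 3 motifs. A match describes the sequence and does not show that a factor binds there.

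None of the 10 genes differed between LOY and Control libraries past an adjusted p of 0.05 in limma, where 0.0288% of the 6951 genes tested did. None of the 10 had an unadjusted p under 0.05 either, against 4.37% of all genes tested, and the values of LOY and Control libraries overlapped for all 10, while they did not for 0.201% of the genes tested. Log2 fold changes, LOY over Control on the log2(normalised reads + 1) scale, were positive for 6 genes and negative for 4, with a median of 0.035 beside 0.0081 over all genes tested. DESeq2 on the recovered reads, which called 3.12% of 9723 genes, called none of the 10, and edgeR called none of the 10 and 0% of 7054 genes. In the authors' deposited table the adjusted p of each of the 10 is 0.999, and this is the same result as that of DESeq2, not a further one, since the log2 fold changes differ by at most 3.28e-04 over 9722 genes and the same 303 genes are called. The absence of a call does not show that the groups were alike, since the intervals differed widely in width, as given for each gene here.

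**Figure D1:**
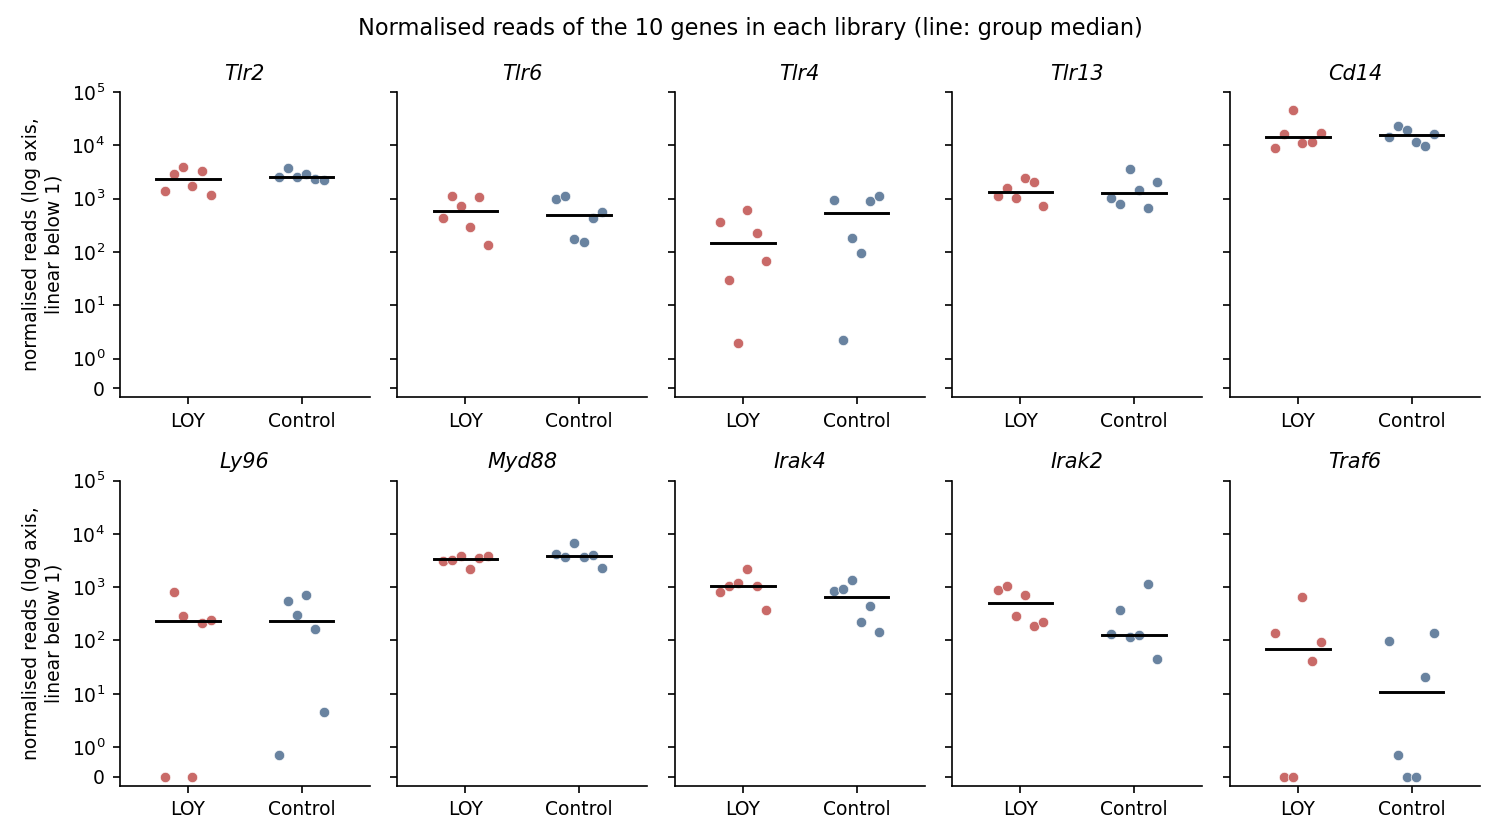
Normalised reads of the 10 genes, 1 panel each, on a log axis that is linear below 1, with 1 point per library and a line at the group median (6 LOY and 6 Control libraries). The LOY and Control points overlap in all 10 panels, and Tlr4, Ly96 and Traf6 have libraries near or at 0 in both groups.

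The receptors of bacterial lipoproteins come first. Tlr2, the shared subunit that pairs with TLR1 or TLR6 (ENSMUSG00000027995, GRCm38 chromosome 3, 83836272 to 83841767, minus strand), had 1165 to 3972 normalised reads in LOY libraries with a median of 2311, and 2287 to 3742 in Control libraries with a median of 2514. LOY libraries spread on both sides of the Control range, with LOY 3, LOY 10 and LOY 15 below its lowest library and LOY 5 above its highest. The means were 2410 ± 1141 in LOY and 2715 ± 555 in Control libraries (SD, n = 6 each), a log2 fold change of -0.29 (SE 0.32, 95% interval -0.99 to 0.40, limma adjusted p = 0.999). Without LOY 5 it was -0.47 and without LOY 15 it was -0.11.

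Tlr6, the partner of Tlr2 for diacylated lipopeptides (ENSMUSG00000051498, chromosome 5, 64952031 to 64960097, minus strand), had 134 to 1109 normalised reads in LOY libraries with a median of 585, and 153 to 1143 in Control libraries with a median of 495. The groups covered nearly the same range, and in each the libraries were far apart, with LOY 15, Control 7 and Control 8 under 200. LOY over Control, the log2 fold change was 0.17 (SE 0.69, 95% interval -1.32 to 1.65, limma adjusted p = 0.999). Of the 3628 windows of 50 bases in its longest coding transcript, 454 occur unchanged in Tlr1, its close paralog, so reads there are uncertain in their assignment. Tlr2 was above Tlr6 per exon length in all 12 libraries.

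Tlr4 encodes the receptor of lipopolysaccharide, the outer membrane component of Gram-negative bacteria (ENSMUSG00000039005, chromosome 4, 66827584 to 66930284, plus strand). It had 1.98 to 621 normalised reads in LOY libraries with a median of 146, and 2.25 to 1137 in Control libraries with a median of 540. LOY 5 and Control 6 were almost without it, at 2 and 3 reads, while Control 2, Control 11 and Control 12 were above every LOY library. The means were 218 ± 240 in LOY and 540 ± 499 in Control libraries (SD, n = 6 each). On the log2 scale the difference was -1.23 (SE 1.64, 95% interval -4.73 to 2.28, limma adjusted p = 0.999). Without LOY 5 the log2 fold change was -0.26, without Control 6 it was -2.41, and without the 4 libraries low in Ly6g it was -1.92.

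Tlr13, an endosomal receptor of bacterial ribosomal RNA in mice (ENSMUSG00000033777, chromosome X, 106143204 to 106160493, plus strand), was read in every library. It had 741 to 2458 normalised reads in LOY libraries with a median of 1349, and 681 to 3600 in Control libraries with a median of 1259. LOY 10 and Control 7 were highest, and the log2 fold change was 0.025 (SE 0.44, 95% interval -0.92 to 0.97, limma adjusted p = 0.9999). Its sign was negative in DESeq2 (-0.11) and edgeR (-0.13).

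Of the co-receptors, Cd14, which hands lipopolysaccharide and lipopeptides to the receptors (ENSMUSG00000051439, chromosome 18, 36725067 to 36726798, minus strand), was the most abundant of the 10. It had 8725 to 45696 normalised reads in LOY libraries with a median of 14156, and 9740 to 23458 in Control libraries with a median of 15528. LOY 5 stood alone at the top, with the next LOY library at 16711, and LOY 3 was lowest. Its log2 fold change was 0.044 (SE 0.35, 95% interval -0.71 to 0.80, limma adjusted p = 0.9995), without LOY 5 it was -0.27, and without the 4 libraries low in Ly6g it was 0.49. Its mean over the 12 libraries was above that of 99.6% of the listed genes.

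Ly96, whose product binds lipopolysaccharide on TLR4 (ENSMUSG00000025779, chromosome 1, 16688051 to 16709611, plus strand), was well above 100 normalised reads in some libraries and at or near 0 in others. It had 0 to 815 normalised reads in LOY libraries with a median of 228, and 0.73 to 725 in Control libraries with a median of 234. LOY 3 and LOY 10 held 0 reads, which allows up to 2.11 and 2.12 normalised reads when 3 reads are taken as the limit, and Control 2 and Control 12 held 1 and 5 reads. The remaining 8 libraries held 167 or more. Its log2 fold change was -0.68 (SE 2.14, 95% interval -5.25 to 3.90, limma adjusted p = 0.999), and without LOY 3 it was 0.44. Without LOY 10 it was 0.44 too, and without Control 2 it was -1.77.

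The 4 libraries nearly without Ly96 were not those nearly without its partner. Tlr4 had 363 normalised reads in LOY 3, 621 in LOY 10, 924 in Control 2 and 1137 in Control 12, while in the 8 libraries with Ly96 it ran from 1.98 to 897 with a median of 82.0. Over all 12 libraries, which Ly96 splits into separate clusters, Pearson's r of Tlr4 with Ly96 was -0.64 and Spearman's rho -0.75 (permutation p = 0.0242 and 0.0065, adjusted over 6 pairs 0.0725 and 0.039), with r at -0.70 within LOY and -0.67 within Control libraries. Without LOY 5 and Control 6, the libraries farthest from the median of Tlr4, r was -0.72. The adjusted permutation p of r was under 0.05 in 2 alternatives, at 0.037 with a pseudocount of 5 and 0.045 without Control 11. In the other 13 alternatives it was not, as with quantile normalization (0.0757) and a pseudocount of 0.5 (0.0867). Within the 8 libraries with Ly96 the correlation was smaller and did not pass, with r of -0.45 and rho of -0.55 (two-sided exact permutation p = 0.258 and 0.171, adjusted over 3 such pairs 0.520 and 0.513). LOY 3 and LOY 10 were also among the libraries with the fewest listed genes under 10 normalised reads, 32.5% and 34.6%, against a range of 35.7% to 51.7% in the others. Control 2 and Control 12, also nearly without Ly96, lay within that range, at 42.1% and 45.4%. The part of this share in the split was not tested.

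**Figure D2:**
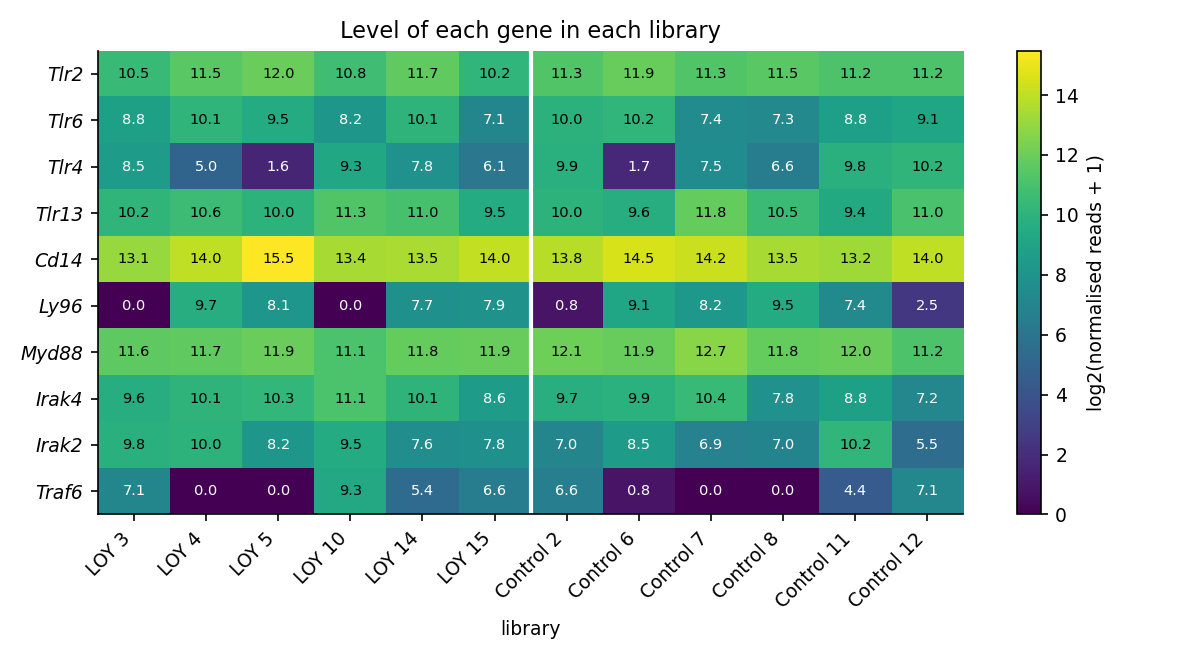
Level of each gene (rows, ordered by role) in each library (columns, 6 LOY left of 6 Control) as log2(normalised reads + 1), with the value in each cell. Ly96 is at or near 0 in LOY 3, LOY 10, Control 2 and Control 12, while Tlr4 has 363 or more normalised reads there.

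Myd88, the adaptor that most Toll-like receptors and the interleukin-1 receptor share (ENSMUSG00000032508, chromosome 9, 119335934 to 119341411, minus strand), had the smallest pooled within-group SD of the 10 on the log2 scale. It had 2215 to 3884 normalised reads in LOY libraries with a median of 3427, and 2322 to 6742 in Control libraries with a median of 3883. LOY 10 and Control 12 were lowest in their groups, and Control 2, Control 7 and Control 11 were above every LOY library. The means were 3309 ± 604 in LOY and 4120 ± 1448 in Control libraries (SD, n = 6 each). On the log2 scale the difference was -0.27 (SE 0.26, limma adjusted p = 0.997), and its 95% interval of -0.83 to 0.29 was the narrowest of the 10. The negative sign held in all 21 alternative fits, from -0.42 to -0.11. The signs of Tlr2, Tlr4 and Irak4 held in all 21 too, and that of Traf6 in the 20 that tested it. An exon stretch of 290 bases overlaps Acaa1a, and reads there cannot be assigned without strand.

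Irak4, the kinase that MyD88 recruits first (ENSMUSG00000059883, chromosome 15, 94543643 to 94581815, plus strand), had the smallest p of the 10. It had 374 to 2172 normalised reads in LOY libraries with a median of 1071, and 145 to 1383 in Control libraries with a median of 646. LOY 10 was above every Control library, and Control 8 and Control 12 were below every LOY library. The means were 1118 ± 596 in LOY and 663 ± 477 in Control libraries (SD, n = 6 each). On the log2 scale the difference was 0.97 (SE 0.60, 95% interval -0.31 to 2.25), with an unadjusted p of 0.127 and an adjusted p of 0.997 in limma. Without Control 12 it was 0.61, and without the 4 libraries low in Ly6g it was 0.29. Exon bases shared with Twf1 on the other strand number 395.

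Irak2, a further kinase of the complex that sustains the signal (ENSMUSG00000060477, chromosome 6, 113638467 to 113695026, plus strand), had 188 to 1040 normalised reads in LOY libraries with a median of 506. Control libraries had 44.4 to 1157 with a median of 127. All of them but Control 6 and Control 11 were below the lowest LOY library, while Control 11 was the highest of all 12. LOY over Control, the log2 fold change was 1.29 (SE 0.83, 95% interval -0.49 to 3.08), with an unadjusted p of 0.142 and an adjusted p of 0.997 in limma. DESeq2 gave 0.79 and edgeR 0.77. With 1 library left out, the log2 fold change in limma ran from 0.89 to 1.83, highest without Control 11. The fit without the 4 libraries low in Ly6g (LOY 3, LOY 4, LOY 10 and Control 12), chosen after seeing the data, gave -0.081. LOY 3, LOY 4 and LOY 10 held the highest LOY values of Irak2. Part of its exons, 196 bases, overlaps Gm43963, and 8.29% of its 50-base windows occur in other genes.

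Traf6, the ubiquitin ligase at the end of the chain (ENSMUSG00000027164, chromosome 2, 101678429 to 101701669, plus strand), was the least abundant. It had 0 to 648 normalised reads in LOY libraries with a median of 67.9, and 0 to 140 in Control libraries with a median of 10.6. LOY 4, LOY 5, Control 7 and Control 8 held 0 reads, which allows up to 2.49 to 3.80 normalised reads, and Control 6 held 1 read. LOY 10 was far above the others, with the next LOY library at 139. Its log2 fold change was 1.58 (SE 1.96, 95% interval -2.61 to 5.77, limma adjusted p = 0.999). Without LOY 10 it was 0.66, and without LOY 4 or LOY 5 it was 2.53. LOY 10, highest in Irak4 and Traf6, was also the library highest in heart muscle, macrophage, monocyte and fibroblast markers. The part of these markers' cells in the values of Irak4 and Traf6 was not tested.

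**Figure D3:**
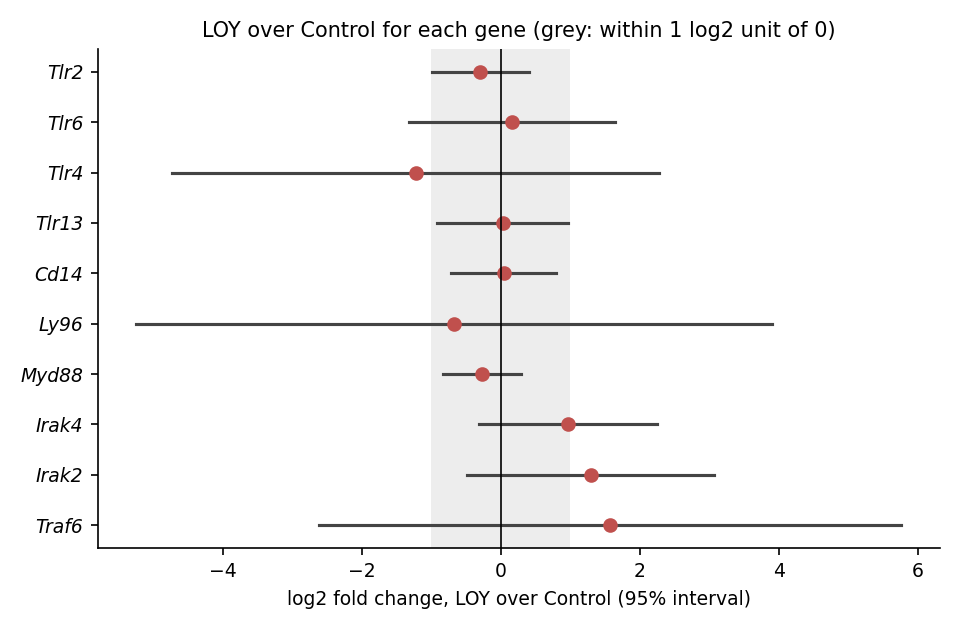
Log2 fold change, LOY over Control, of each gene (rows, ordered by role) on the x axis, with points for the estimate and lines for the 95% interval of limma over 6 LOY and 6 Control libraries, and grey for values within 1 log2 unit of 0. All 10 intervals include 0, and those of Tlr2, Tlr13, Cd14 and Myd88 lie within the grey band.

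The spread between libraries differed widely among the 10 genes. The within-group SD on the log2 scale, pooled over LOY and Control, was 0.41 for Myd88, 0.55 for Tlr2, 0.68 for Cd14 and 0.78 for Tlr13. For Irak4, Tlr6 and Irak2 it was 1.07, 1.21 and 1.38. It was 3.04 for Tlr4, 3.61 for Traf6 and 4.05 for Ly96, and 96.7% of the genes tested had a smaller SD than Ly96, while 1.28% had a smaller one than Myd88. The order was not the same in each group, as Tlr2 had an SD of 0.72 in LOY and 0.27 in Control libraries, and Myd88 0.30 and 0.49. In LOY and in Control libraries alike, the SDs of Tlr4, Ly96 and Traf6 were the highest of the 10. For Myd88, Tlr2, Cd14 and Tlr13 the 95% interval lay within 1 log2 unit of 0, so a change of 2-fold or more in the mean log2 level lay outside it. For the other 6 genes a change of that size was within the interval.

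Levels were compared between genes per kilobase of exon, with the exons of all GENCODE M21 transcripts merged. Cd14 stood first, at 10630 ± 7929 normalised reads per kilobase in LOY and 9113 ± 2922 in Control libraries (SD, n = 6 each), and its lowest library, at 5038, was above the highest of any other of the 10. Myd88 followed at 1285 ± 234 in LOY and 1599 ± 562 in Control libraries, above Tlr2 at 800 ± 378 and 901 ± 184, in 12 of 12 libraries. Tlr2 was above Tlr13, at 348 ± 151 in LOY and 374 ± 255 in Control libraries, in 11 of 12.

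The middle of the order was not resolved. Ly96 averaged 253 ± 293 normalised reads per kilobase in LOY and 287 ± 291 in Control libraries. Irak4 averaged 223 ± 119 in LOY and 132 ± 95.1 in Control libraries, and Tlr6 168 ± 109 and 155 ± 112. Tlr13 was above Ly96 in 6 of 12 libraries, Ly96 above Irak4 in 7 and Irak4 above Tlr6 in 6. Irak2, at 127 ± 84.9 in LOY and 73.3 ± 95.9 in Control libraries, was below Tlr6 in 8 of 12 and above Tlr4 in 9 of 12. By group, it was below Tlr6 in 3 LOY and 5 Control libraries, and above Tlr4 in 6 LOY and 3 Control libraries. Tlr4, at 39.3 ± 43.2 in LOY and 97.1 ± 89.8 in Control libraries, was above Traf6, at 19.5 ± 31.5 and 5.47 ± 7.69, in 12 of 12. With the length of the longest coding transcript in place of the merged exons, Ly96 moved above Tlr13, at 436 against 383 over all libraries, and the order of the other genes was the same.

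**Figure D4:**
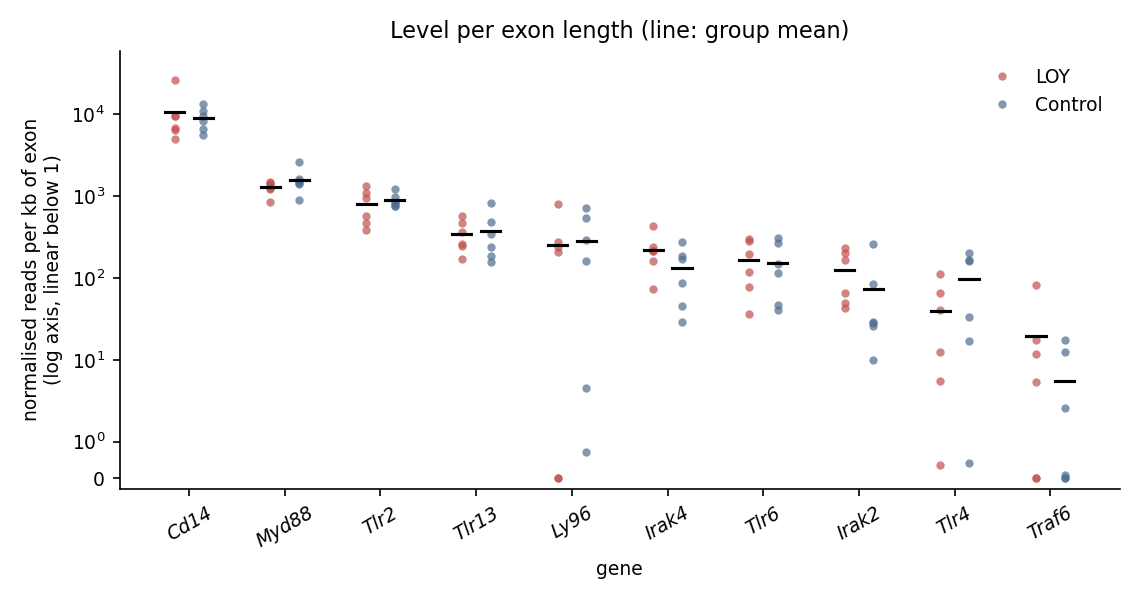
Normalised reads per kilobase of exon (log axis, linear below 1) for the 10 genes ordered by their mean, with 1 point per library, LOY left of Control, and a line at the group mean (n = 6 each). Cd14 is above 5000 in every library, and the ranges of neighbouring genes below it overlap.

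Partner pairs were compared across the 12 libraries on the log2 scale, 6 pairs in all, each with a two-sided permutation test of 100000 resamples. For Tlr2 with Tlr6, r was 0.58 and rho 0.60 (p = 0.0516 and 0.0438, adjusted over 6 pairs 0.103 and 0.0974). It was 0.46 without LOY 3 and LOY 15, the libraries farthest from the median of Tlr2, and 0.86 within LOY and 0.25 within Control libraries. For Tlr4 with Cd14, r was -0.76 and rho -0.59 (p = 0.00369 and 0.0487, adjusted 0.0221 and 0.0974). Without both LOY 5 and Control 6, the libraries with 2 and 3 reads of Tlr4, r was -0.33 and did not pass (two-sided permutation p = 0.347). Without LOY 5 alone r was -0.61, and without Control 6 alone it was -0.75. Within the groups, with LOY 5 and Control 6 included, r was -0.96 in LOY and -0.60 in Control libraries.

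For Myd88 with Irak4, r was 0.20 and rho 0.084 (permutation p = 0.529 and 0.798, adjusted 0.635 and 0.958), and it had opposite signs within the groups, -0.66 in LOY and 0.84 in Control libraries. That difference was not tested. For Irak4 with Irak2, r was 0.47 and rho 0.20 (permutation p = 0.122 and 0.526, adjusted 0.183 and 0.789). It was -0.084 without Control 8 and Control 12. For Irak2 with Traf6, r was 0.023 and rho 0.0036 (permutation p = 0.942 and 0.996, adjusted 0.942 and 0.996). Traf6 splits the libraries, and within the 7 libraries at 10 or more normalised reads of it, r with Irak2 was -0.038 and rho -0.29 (two-sided exact permutation p = 0.948 and 0.556, adjusted over 3 pairs 0.948 and 0.556).

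The rest of the pathway was described with 7 lists of 92 other genes, of which 82 were in the table and 68 were tested. None of the 68 passed an adjusted p of 0.05 in limma, and none had an unadjusted p under 0.05, against 4.37% of all genes tested. Of the 68, 32 had a positive and 36 a negative log2 fold change, with a median of -0.043. The genes named here are those of smallest p in each list, and each has an adjusted p of 0.997 or more in limma.

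Among other Toll-like receptors, Tlr1 and Tlr8 were tested. Tlr1, the second partner of Tlr2, had 3.09 to 41.5 normalised reads in LOY libraries and 3.80 to 693 in Control libraries, with a log2 fold change of -1.495 (SE 1.48). The endosomal receptor gene Tlr8 stood at 0.57 (SE 2.21). Tlr5 and Tlr7 were under the value filter, and Tlr3, Tlr9, Tlr11 and Tlr12 were not found by name among the listed genes. Of 5 tested receptor helpers, 4 were positive, with a median of 0.70. Cnpy3 and Hsp90b1, which fold Toll-like receptors, stood at 1.23 (SE 1.02) and 0.70 (SE 0.60), and the scavenger receptor gene Cd36 at 1.75 (SE 1.63).

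Lbp, which carries lipopolysaccharide to CD14, was below the value filter in limma and was the single gene called by DESeq2 among the 75 of the 92 that it tested, a share below the 3.12% called over all genes. It is named because of that call, after its values were seen. It had 782 normalised reads in LOY 5, 310 in LOY 15 and 146 in LOY 14, 0 reads in LOY 3, LOY 4 and LOY 10, and 1 read in all 6 Control libraries together. DESeq2 gave a log2 fold change of 10.46 (SE 2.40, adjusted p = 7.49e-04), which depends on how the model treats groups near 0.

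The signalling chain gave values on both sides of 0. Of 4 tested genes of other adaptors and interleukin-1 family receptors, Il1rap had 1295 ± 843 normalised reads in LOY and 1548 ± 607 in Control libraries (SD, n = 6 each), with a log2 fold change of -0.50 (SE 0.52). Il18rap stood at -0.12 (SE 0.31) and the adaptor gene Pik3ap1 at 0.32 (SE 1.94). Of 16 kinases and ubiquitin enzymes, 7 were positive, with a median of -0.12. Tnip1, a partner of the inhibitor A20, had a median of 324 normalised reads in LOY and 85.5 in Control libraries and a log2 fold change of 2.38 (SE 1.32). Ikbkg, the regulatory subunit of the IkB kinase, had a median of 26.8 in LOY and 373 in Control libraries (-2.89, SE 1.93), and its catalytic subunit Chuk stood at 1.94 (SE 1.496).

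Of 17 tested inhibitors of the pathway, 11 were negative, with a median of -0.070. Lilrb4a, an inhibitory receptor of myeloid cells, had 19670 to 42295 normalised reads in LOY libraries and 32137 to 46402 in Control libraries, with a log2 fold change of -0.38 (SE 0.19, unadjusted p = 0.0677 in limma). The deubiquitinase gene Cyld stood at -2.15 (SE 1.32) and the TRAF-binding gene Tank at 1.48 (SE 1.32). Of 13 transcription factors, 7 were positive, with a median of 0.076. Irf3 had 106 to 1127 normalised reads in LOY libraries with a median of 316, and 465 to 1198 in Control libraries with a median of 849 (log2 fold change -1.29, SE 0.62, unadjusted p = 0.0538 in limma). The NF-kB subunit genes Nfkb1 and Rela stood at 1.11 (SE 0.59) and -1.43 (SE 0.95).

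Of 11 tested cytokine and mediator genes that the pathway is known to induce, 5 were positive and 6 negative, with a median of -0.19. Acod1, which makes itaconate, had 4311 ± 2602 normalised reads in LOY and 6280 ± 2831 in Control libraries (SD, n = 6 each), with a log2 fold change of -0.64 (SE 0.40). Ptgs2, the inducible cyclooxygenase, had 6931 ± 1432 in LOY and 9575 ± 5372 in Control libraries (-0.32, SE 0.31), and the chemokine gene Ccl3 stood at 0.43 (SE 0.39). Il6, Il10 and Il12b were not found by name among the listed genes.

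**Figure D5:**
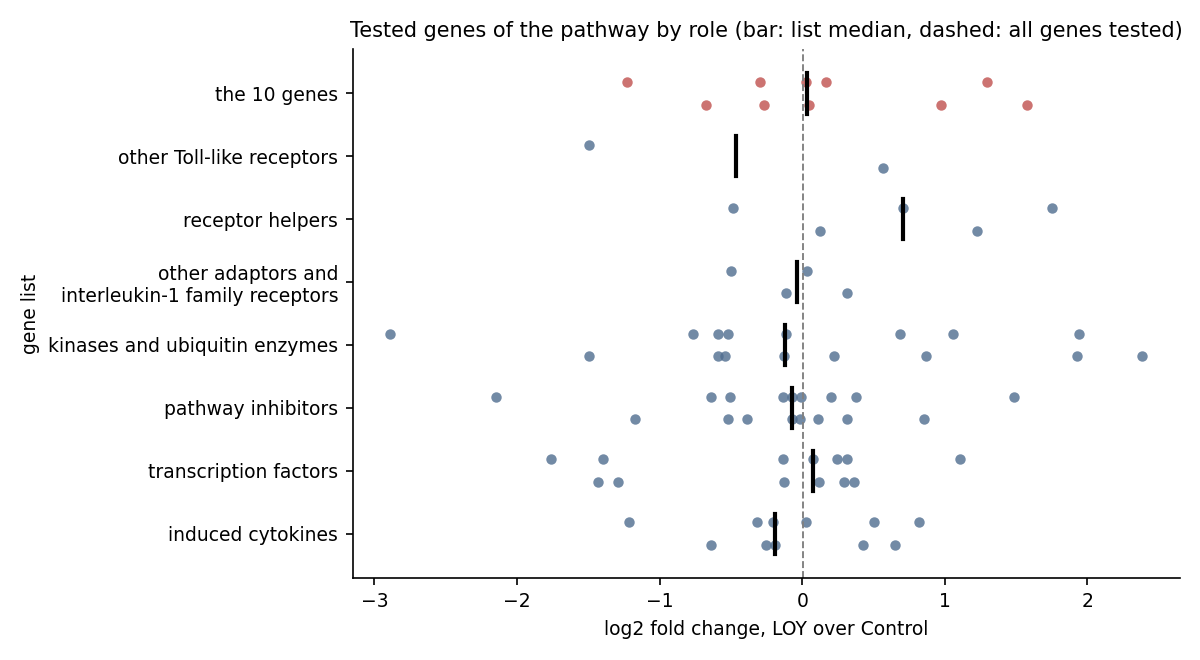
Log2 fold change, LOY over Control, of each tested gene (points) in the 10 genes and in 7 lists of other pathway genes by role, with a bar at each list's median and a dashed line at the median of all genes tested (0.0081). Points lie on both sides of 0 in every list.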

How the data were processed

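Per the labels' protocols, the SMART-Seq v4 kit gave cDNA and Nextera XT the libraries, so strand and molecular identifiers are not kept. Per the submitters' processing notes, reads went through STAR 2.5.2b, Trimmomatic 0.36 and Subread 1.5.2 (featureCounts), listed here in no order, with builds GRCm38 and mm10. Judged from the values, the signal columns the authors deposited are a read count scaled by the library's own factor. Of values above 0, 100% were whole multiples of 1 step within 0.01 of a read. The authors also deposited a log2 fold change and a p-value per gene, by a tool not given in the sources used here. DESeq2 on the recovered reads gave the same values within 3.28e-04.

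Groups came from the genotype label. limma 3.58.1 with trend and robust empirical Bayes was fitted to log2(normalised reads + 1) of genes that reached 10 normalised reads in 6 or more libraries, with p-values adjusted by Benjamini-Hochberg over all 6951 genes tested. All 10 genes passed that filter. The pseudocount shrinks ratios of values near 0, and a difference of mean logs can differ in size and sign from the ratio of mean levels. Alternatives were DESeq2 1.42.0 and edgeR 4.0.16 on the recovered reads, quantile normalization, array weights, other filters and pseudocounts of 0.5 and 5, and each library left out. A fit without the 4 libraries low in Ly6g was chosen after seeing the data. Coordinates and lengths are from GENCODE M21 on GRCm38, and promoters from RefSeq. The limma fit and the permutation test were tested on simulated data. The genes and lists were chosen with earlier results of these data known. All 10 genes are named, and of each pathway list the 3 genes of smallest p. Limits from a count of 0 cover counting error only.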

Additional observations from a re-analysis of the deposited data

Results flagged for a closer look

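In 4 of the 20 groups of 6 libraries (10 genes, LOY and Control), the highest library stood apart from the others by Dixon's ratio (the gap to the next library over the whole range), above its 95% critical value. Chance flags about 1 in 20 groups where values are normal, and these normalised reads are skewed. On the log2 scale none of the 4 passed (0.608 for Cd14, 0.158 for Ly96, 0.237 for Traf6 and 0.352 for Irak2), and 1 other group did, Myd88 in LOY libraries, through its lowest library, LOY 10. Cd14 had 45696 normalised reads in LOY 5, against 16711 in the next LOY library (ratio 0.784). Ly96 had 815 in LOY 4, against 282 in the next LOY library (ratio 0.654). Traf6 had 648 in LOY 10, against 139 in the next LOY library (ratio 0.786). Irak2 had 1157 in Control 11, against 370 in the next Control library (ratio 0.708).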

How the results depend on the processing

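None of the 10 genes passed under any of the 21 alternatives, Traf6 being untested in 1 of them, without the 4 libraries low in Ly6g. The single alternative with an unadjusted p under 0.05 among the 10 was limma without Control 11. The smallest there was 0.040, and the smallest adjusted p of the 10 was 0.985. The number of all genes past the threshold, 2 in limma, was 303 in DESeq2, 0 in edgeR, 0 with no filter, 0 with a mean of at least 50 and 0 without the 4 libraries low in Ly6g, and 0 to 4 with 1 library left out (0 without any 1 of LOY 3, 4, 5, 14 and 15 or Control 7, 8 and 12, 1 without Control 2 and 4 without Control 11). The number of the 92 other pathway genes was 1 in DESeq2 (Lbp) and 0 otherwise.

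Of 209 log2 fold changes of the 10 genes under an alternative, 188 kept their sign and 21 did not, and the cause was not tested. With 1 library left out, Tlr6 ran from -0.14 to 0.54, Tlr13 from -0.17 to 0.31, Cd14 from -0.27 to 0.21 and Ly96 from -1.77 to 0.44. Tlr13 was -0.11 in DESeq2 and -0.13 in edgeR, and Cd14 was -0.14 with array weights. Without the 4 libraries low in Ly6g, Tlr13 was -0.097, Ly96 0.93 and Irak2 -0.081. Of the 6 partner pairs, the number past an adjusted p of 0.05 in Pearson's r over all libraries was 1 (Tlr4 with Cd14), 2 with a pseudocount of 5, 0 with quantile normalization and 0 to 2 with 1 library left out. That call was lost without LOY 5 (r = -0.61, adjusted permutation p = 0.131) and without Control 6, where r stayed close to its value over all libraries (-0.75 beside -0.76, adjusted permutation p = 0.0944). Irak2 with Traf6 stood at -0.10 with quantile normalization and ran from -0.14 to 0.23 with 1 library left out, and Myd88 with Irak4 from -0.14 to 0.58.

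No paired analysis was possible because no replicate number is shared between LOY and Control libraries. Genes of few reads limit the precision: Tlr4, Ly96 and Traf6 were under 10 normalised reads in 2, 4 and 5 of 12 libraries.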
